A study of Mus musculus with 14 samples.

Results

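The 10 genes described here are niche factors that the stroma of bone marrow is known to express: the ligands Cxcl12, Kitl, Angpt1, Il7 and Jag1, the receptors Lepr, Pdgfra and Pdgfrb, and the transcription factors Foxc1 and Ebf3. They were chosen by name, from what is known of the marrow niche, out of the 55487 genes counted. Earlier results of these data were known when they were chosen. Their counts were read in 14 RNA sequencing libraries of 3 populations. The MSC (mesenchymal stromal cell) libraries came from bone marrow of wild-type C57BL/6 mice that was kept in culture for 21 days and given PBS (replicates 2 and 3) or IL-1β at 5 ng/ml (replicates 1 and 2) for 72 h. The other populations are LSK, the Lin-Sca1+c-kit+ fraction of marrow, enriched for hematopoietic stem cells, and LK, the Lin-c-kit+ fraction, which holds myeloid progenitors. Both were sorted from Mx1Cre; Jak2VF/+ mice. In these mice the heterozygous Jak2V617F allele is switched on by a Cre that pI-pC induces through the interferon-responsive Mx1 promoter, and PBS controls carry the allele too. The study's text describes the injected cohort as irradiated C57BL/6 recipients of such marrow. Each of these populations has 3 PBS and 2 IL-1β libraries, and the injections were given 3 times per week for 16 weeks, IL-1β at a dose that the sample labels write as 0.5 g and the study's text gives in micrograms. Mutant and wild-type cells were not compared within a population. Mice of the study were 6 to 8 weeks old, with no age given per group.

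Hematopoietic stem cells are kept in the marrow by signals from perivascular stromal cells. CXCL12 holds cells that carry its receptor CXCR4, stem cell factor, the product of Kitl, sustains cells through the receptor KIT, angiopoietin-1 acts on the receptor TIE2 (encoded by Tek), IL-7 supports lymphoid progenitors, and JAG1 activates Notch receptors. In vivo the main source of CXCL12 and stem cell factor is a set of stromal cells that carry the leptin receptor, express PDGF receptors and depend on FOXC1 and EBF3. Inflammatory cytokines such as IL-1 are known to act on these cells as well as on the stem cells.

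Totals of counted read pairs ran from 4393233 to 30871055 per library, and each IL-1β library of LSK and LK cells was shallower than each PBS library of its population. The MSC label was set against marker genes. Of 22 mesenchymal markers, Sparc, Col1a1 and Bgn were the most abundant per kilobase in the MSC libraries, and the list summed to 4334 and 7143 CPM (counts scaled by TMM to a common library size) with PBS and to 7836 and 8521 with IL-1β. A list of 20 macrophage markers was higher still, at 23200 and 26995 CPM with PBS and 45210 and 46405 with IL-1β, led by Lyz2, Ctss and C1qb. The cultures therefore held macrophage transcripts beside stromal ones, and in bulk RNA a smaller share of stromal cells and less RNA per cell cannot be told apart. The 10 endothelial markers summed to 52.4 and 73.7 CPM with PBS and to 43.6 and 43.8 CPM with IL-1β. Of these, Vwf had the most counts (201 to 789 per MSC library), Cdh5 had 9 to 25, and Cldn5 had at most 1. Among the LSK libraries, PBS replicate 2 stood apart: 26.1% and 27.3% of genes differed by over 2-fold from the other PBS libraries, against 7.66% between those. In MSC, 9.29% of genes differed by over 2-fold between the PBS libraries and 2.89% between the IL-1β libraries.

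Promoter sequence is shown for the member with the highest MSC level (Cxcl12), for the pair of members that passed the test in MSC (Kitl and Jag1), and for Foxc1, the member whose stretch holds the motif of NF-kB, a factor that IL-1 signaling is known to activate. The sequences are from RefSeq on GRCm38, whose table of promoters held 7 of the 10 genes, without Angpt1, Il7 and Pdgfrb. Each stretch ends at the last base before the gene as counted. Cxcl12 spans chr6:117168535-117181367 on the plus strand and its stretch chr6:117168285-117168534. Kitl spans chr10:100015630-100100416 on the plus strand and its stretch chr10:100015571-100015629. Jag1 spans chr2:137081456-137116644 on the minus strand and its stretch chr2:137116645-137116770. Foxc1 spans chr13:31806633-31812476 on the plus strand and its stretch chr13:31806396-31806632. Capitals mark matches to the NF-kB motif or the CAAT box (CCAAT), read on both strands.
Cxcl12: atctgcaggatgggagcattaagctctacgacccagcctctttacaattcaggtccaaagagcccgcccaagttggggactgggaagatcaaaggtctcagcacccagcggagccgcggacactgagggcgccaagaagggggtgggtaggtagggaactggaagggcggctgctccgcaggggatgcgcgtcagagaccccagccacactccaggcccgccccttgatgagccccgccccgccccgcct
Kitl: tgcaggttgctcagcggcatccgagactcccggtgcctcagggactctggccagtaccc
Jag1: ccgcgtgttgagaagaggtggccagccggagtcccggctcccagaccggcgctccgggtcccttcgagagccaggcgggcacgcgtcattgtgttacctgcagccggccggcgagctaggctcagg
Foxc1: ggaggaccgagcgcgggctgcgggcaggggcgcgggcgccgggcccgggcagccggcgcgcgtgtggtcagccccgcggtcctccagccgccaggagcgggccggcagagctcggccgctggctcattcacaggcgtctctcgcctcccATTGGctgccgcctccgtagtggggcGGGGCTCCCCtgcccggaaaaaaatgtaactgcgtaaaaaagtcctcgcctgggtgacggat

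In the window of 300 bases around each RefSeq start (250 of them upstream), an NF-kB match stood at -75 to -66 in Foxc1 and at -152 to -143 in Kitl, where base 1 is the start and the Kitl match lies inside the gene as counted. Of all 32851 promoters in the table, 8.46% held such a match, 37.4% a CAAT box and 13.6% a TATA box (TATAAA). Foxc1 had CAAT boxes at -101 to -97 and 10 to 14, Lepr had one at -195 to -191, and Kitl had a TATA box at -25 to -20. No match to any of the 3 motifs was found in the windows of Cxcl12, Jag1, Ebf3 and Pdgfra. The matches are a description of letters and were not tied to the expression values.

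The members spanned a wide range of levels in the MSC cultures. With PBS, and per kilobase of exon, Cxcl12 was the highest with 44.2 and 10.4 RPKM in the 2 libraries, followed by Pdgfrb with 16.6 and 9.36 RPKM, and these ranges overlapped. Kitl (5.21 and 4.71 RPKM) lay below Pdgfrb in both libraries and above Pdgfra (2.52 and 3.98 RPKM). Pdgfra, Jag1 (2.74 and 2.92 RPKM) and Foxc1 (4.152 and 1.501 RPKM) overlapped one another. Angpt1 (1.02 and 1.04 RPKM), Il7 (0.697 and 0.564 RPKM) and Ebf3 (0.492 and 0.396 RPKM) formed the low end, each above the next in both libraries. Lepr, the gene that marks the main niche cell in vivo, had 0 counts in both PBS libraries, where 3 counts would be the upper limit that a count of 0 allows, and 5 and 6 counts with IL-1β. It was too low to be tested in any comparison.

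**Figure D1:**
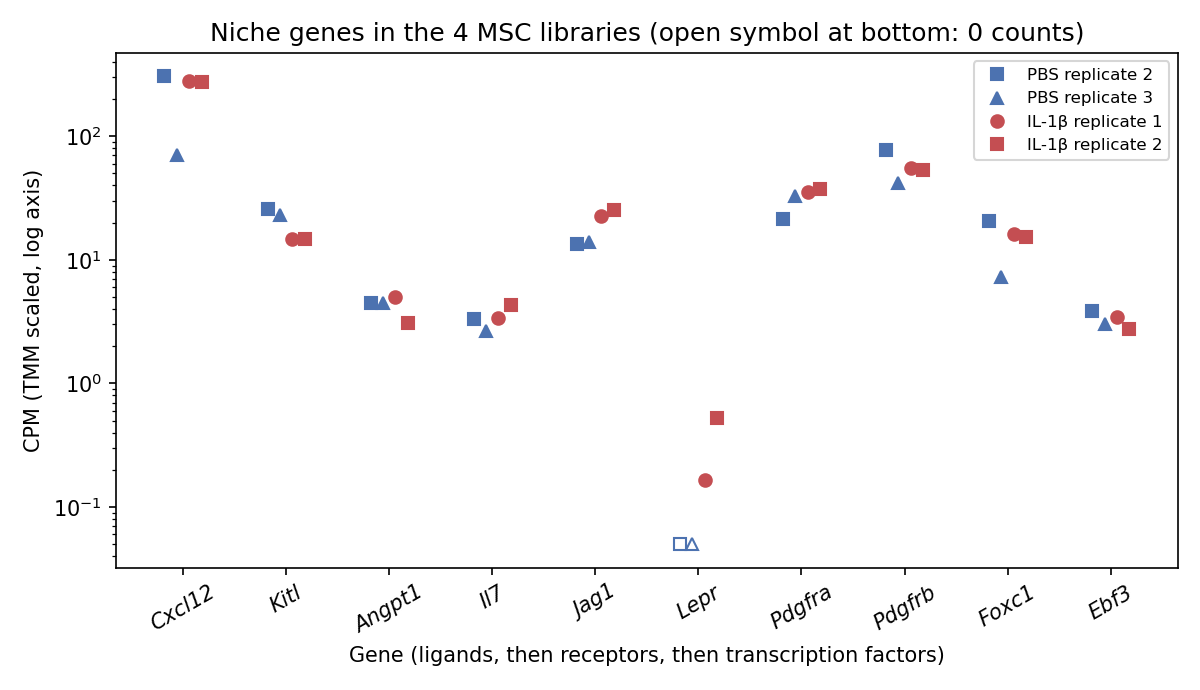
TMM-scaled CPM (log axis) of the 10 niche genes in each MSC library, blue for PBS and red for IL-1β, with the symbol giving the replicate number. Both IL-1β libraries of Kitl lie below and both of Jag1 above the PBS libraries, whereas PBS replicates 2 and 3 lie far apart for Cxcl12 (305 and 70.0 CPM).

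The comparison of IL-1β with PBS asks how the niche factors of stromal cultures respond to the cytokine. Jag1 rose, Kitl fell, and the other members tested did not pass the test. The labels number the libraries without saying whether they came from separate cultures or animals, so that p-values here and below measure the spread between these libraries, which may be technical. Calls come from edgeR's quasi-likelihood test and needed both an adjusted p below 0.05 and a change of more than 0.5 on the log2 scale. Of 9 members tested, 1 was called higher, where 7.14% of all 13239 genes tested were, and 1 was called lower, against 4.31% of all genes. The median log2 fold change over the 9 members was 0.24 and over all genes 0.00437. Libraries of both treatments did not overlap for 4 members (Il7, Jag1, Pdgfra and Kitl), against 61.2% of all genes, so that such a gap was common here.

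Among the ligands, Kitl, which encodes stem cell factor, was at 26.0 and 23.0 CPM in the PBS libraries and at 14.7 and 14.8 CPM in the IL-1β libraries. Both IL-1β values were below both PBS values. Its log2 fold change was -0.72 (SE 0.14, edgeR adjusted p = 0.0322). Jag1, a Notch ligand, was at 13.5 and 14.01 CPM with PBS and at 22.8 and 25.2 CPM with IL-1β, again without overlap but in the other direction. Its log2 fold change was 0.80 (SE 0.14, edgeR adjusted p = 0.0255). The level of Kitl stood behind only Cxcl12 and Pdgfrb with PBS, and with IL-1β its mean of 3.07 ± 0.0980 RPKM (SD, n = 2) was also below those of Jag1 (5.06 ± 0.179), Pdgfra (4.46 ± 0.0114) and Foxc1 (3.30 ± 0.240), the last by less than the spread of the libraries. With 1 of the IL-1β libraries left out, neither call was kept (adjusted p of 0.309 and 0.380 for Kitl and of 0.291 and 0.329 for Jag1), while the log2 fold changes stayed between -0.81 and -0.63 for Kitl and between 0.72 and 0.88 for Jag1. Scaled to the geometric mean of the mesenchymal markers in place of TMM, which moved the median of all genes to -0.52, Kitl was at -1.23 (adjusted p = 0.317) and Jag1 at 0.27 (adjusted p = 0.787).

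Cxcl12, the chemokine that retains stem cells, was at 305 and 70.0 CPM in PBS replicates 2 and 3 and at 283 and 276 CPM with IL-1β. The IL-1β libraries thus lay between the PBS libraries, which differed more from each other than from them. The log2 fold change was 0.59 (SE 0.71, edgeR adjusted p = 0.640), and it depended on which PBS library was kept. Without PBS replicate 2 it was 2.01 (adjusted p = 1.22e-12), and without PBS replicate 3 it was -0.12 (adjusted p = 0.357). Foxc1, a transcription factor of CXCL12-abundant reticular cells, had the same arrangement, with 20.5 and 7.23 CPM with PBS and 16.1 and 15.3 CPM with IL-1β. Its log2 fold change was 0.24 (SE 0.49, adjusted p = 0.785), with 1.13 (adjusted p = 5.40e-05) without PBS replicate 2 and -0.38 (adjusted p = 0.123) without PBS replicate 3. Mesenchymal markers moved along with these values, as the summed list was 7143 CPM in PBS replicate 2 and 4334 in PBS replicate 3, and Col1a1 was at 814 and 406 CPM. Scaled to these markers in place of TMM, neither Cxcl12 nor Foxc1 was called, and Foxc1 turned to -0.12. The part of the markers in the result was not tested.

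The low ligands gave no call. Angpt1 was at 4.50 and 4.44 CPM with PBS and at 5.02 and 3.09 CPM with IL-1β, so that its IL-1β libraries lay on either side of the PBS libraries (log2 fold change -0.11, SE 0.33, adjusted p = 0.857). Il7 was at 3.33 and 2.64 CPM with PBS and at 3.38 and 4.32 CPM with IL-1β (log2 fold change 0.37, SE 0.33, adjusted p = 0.498). Both rest on 20 to 153 counts per library.

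Of the receptors, Pdgfra was at 21.3 and 32.9 CPM with PBS and at 35.5 and 37.2 CPM with IL-1β. Both IL-1β libraries were higher, but the difference did not pass the test (log2 fold change 0.40, SE 0.21, adjusted p = 0.263). It passed without PBS replicate 3, at 0.77 (adjusted p = 9.31e-04), and scaled to mesenchymal markers it was at -0.19 (adjusted p = 0.844). Pdgfrb was at 76.9 and 42.2 CPM with PBS and at 54.96 and 53.7 CPM with IL-1β, in the middle of the PBS range (log2 fold change -0.11, SE 0.28, adjusted p = 0.837). Ebf3, which keeps stromal cells from turning into bone, was at 3.83 and 3.01 CPM with PBS and at 3.44 and 2.74 CPM with IL-1β (log2 fold change -0.11, SE 0.33, adjusted p = 0.857). All groups of Pdgfrb and Ebf3 overlapped.

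**Figure D2:**
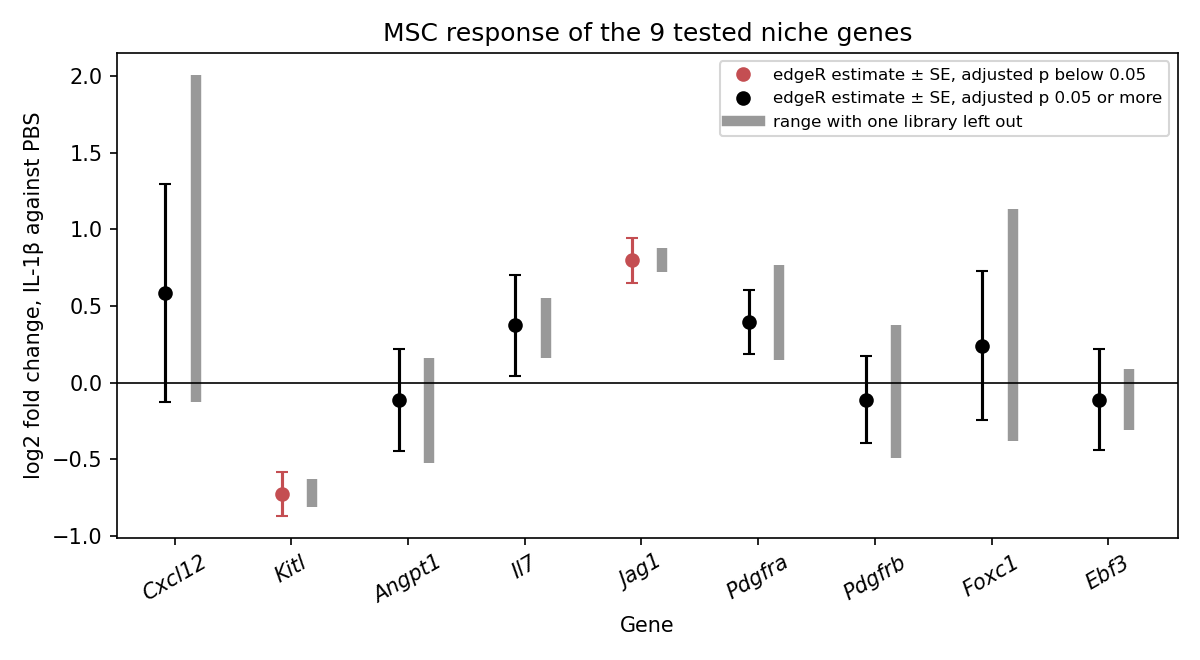
Log2 fold change of IL-1β against PBS in MSC for the 9 niche genes tested, as the edgeR estimate with its SE (red where the adjusted p was below 0.05) and, in grey, the range when any one of the 4 libraries was left out. The range of Cxcl12 runs from -0.12 to 2.01 and that of Jag1 from 0.72 to 0.88.

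The markers that moved in the same comparison are given beside these values. Of the 19 macrophage markers tested, 8 were called higher with IL-1β and 0 lower, where 7.14% and 4.31% of all genes tested were. The largest rise was that of Lyz2 (log2 fold change 1.77, SE 0.21, edgeR adjusted p = 0.00865), the lysozyme of macrophages and granulocytes. The estimate was above 0 for 15 of the 19. It was below 0, without a call, for Cd68 (-0.47), Tyrobp (-0.33), Fcer1g (-0.11) and Cx3cr1 (-0.05). Of the 22 mesenchymal markers, Col6a1 (0.64), Dcn (1.60) and Fstl1 (0.82) were called higher, and 0 were called lower. Of the 3 adipocyte markers tested, Pparg, the master regulator of fat cell formation, fell by 1.16 on the log2 scale. Lpl and Fabp4 were not called. Adipoq (2 to 14 counts per MSC library), Plin1 (0 to 4) and Cfd (0 to 4) were too low to be tested. None of the 6 endothelial, 3 osteoblast and 4 stem and progenitor markers tested was called by edgeR, and at an unadjusted p below 0.05 there were 2, 1 and 3. No share of all genes was taken at that unadjusted threshold, here or below. The part of these cell markers in the changes of Jag1, Kitl and the MSC genes named below was not tested.

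Of 20 receptors and partners of the niche ligands, 15 could be tested in MSC, of which 5 rose (Cxcr4, Il2rg, Notch1, Notch2 and Pdgfc) and 3 fell (Kit, Il7r and Pdgfb). Of all genes tested in MSC, 7.14% were called higher and 4.31% lower. Cxcr4, the receptor of CXCL12, was at 171 and 149 CPM with PBS and at 319 and 310 CPM with IL-1β (log2 fold change 0.97, SE 0.11, edgeR adjusted p = 0.00852). Notch1 rose by 1.08 (SE 0.16, adjusted p = 0.0146) and Notch2 by 0.86 (SE 0.13, adjusted p = 0.0159) on the log2 scale. With Jag1, a ligand and its receptors were thus higher in the same cultures, where 8 of 19 macrophage markers were also called higher and 0 lower. Whether stromal cells or macrophages held these transcripts was not tested. Kit, the receptor of the Kitl product, was near the bottom of the range at 3.00 and 1.96 CPM with PBS and at 0.525 and 0.265 CPM with IL-1β (log2 fold change -2.47, SE 0.56, adjusted p = 0.0445). Il7r, the IL-7 receptor chain, was abundant, at 292 and 275 CPM with PBS and at 166 and 158 CPM with IL-1β (log2 fold change -0.81, SE 0.10, adjusted p = 0.0100), whereas Il2rg, which encodes the common cytokine receptor chain that pairs with it, rose by 1.63 (SE 0.13, adjusted p = 0.00297). With either IL-1β library left out, Cxcr4, Kit, Il7r, Il2rg, Notch1 and Notch2 kept their direction but not their call (edgeR adjusted p from 0.0551 to 0.445), and the value of Kit was -3.15 without replicate 1. Scaled to mesenchymal markers, Cxcr4, Il7r, Il2rg, Notch1 and Notch2 were not called (adjusted p from 0.291 to 0.720). With all 14 libraries in one fit, Il7r, Notch1, Notch2 and Pdgfc were not called (edgeR adjusted p from 0.0566 to 0.392).

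Both PDGF ligand genes past the test are ligands of the PDGF receptors among the members. Pdgfc was at 30.3 and 22.4 CPM with PBS and at 68.4 and 65.3 CPM with IL-1β (log2 fold change 1.36, SE 0.16, edgeR adjusted p = 0.00865). Pdgfb went the other way, from 134 and 207 CPM to 66.1 and 57.5 CPM (log2 fold change -1.47, SE 0.22, adjusted p = 0.0185). Neither was called with either IL-1β library left out (adjusted p of 0.157 and 0.0983 for Pdgfc and of 0.208 and 0.209 for Pdgfb), and Pdgfc was not called when scaled to mesenchymal markers (adjusted p = 0.486). Il1r1, which encodes the receptor of IL-1 itself, was at 5.00 and 7.68 CPM with PBS and at 10.6 and 7.94 CPM with IL-1β (log2 fold change 0.52, SE 0.28, adjusted p = 0.277).

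In a further list of 35 niche genes, 32 were tested in MSC, of which 5 rose (Il6, Il15, Slit3, Spp1 and Vcam1) and 3 fell (Nes, Cspg4 and Csf1). The shares of all genes called were 7.14% higher and 4.31% lower. Il6, an inflammatory cytokine, went from 0.167 and 0.452 CPM to 30.9 and 28.6 CPM (log2 fold change 6.34, SE 0.30, edgeR adjusted p = 9.10e-04). Il15, which supports natural killer cells, rose by 1.11 (SE 0.21, adjusted p = 0.0272). Scaled to mesenchymal markers it was at 0.56 and not called (edgeR adjusted p = 0.610). Nes (nestin), used as a marker of perivascular stem cells, was at 38.8 and 69.2 CPM with PBS and at 11.6 and 12.8 CPM with IL-1β (log2 fold change -2.17, SE 0.29, adjusted p = 0.0142). Cspg4, which encodes the pericyte marker NG2, was at 13.005 and 10.8 CPM and then at 4.49 and 2.12 CPM (log2 fold change -1.77, SE 0.37, adjusted p = 0.0361). Il15, Nes and Cspg4 were not called with either IL-1β library left out (edgeR adjusted p from 0.130 to 0.305, with Cspg4 at -2.47 without replicate 1) or with all 14 libraries in one fit (adjusted p from 0.1198 to 0.327). Il6 was called in each of these settings, at 7.43 without PBS replicate 3. The median log2 fold change of this list was -0.20, and it was 0.11 for the receptors and partners.

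The PBS libraries of all populations were then compared in one fit, to show which of the niche genes were higher in the stromal cultures. Culture, genotype and cell type differ together between MSC and the sorted cells and cannot be told apart. Against LSK cells, 6 of the 9 members tested were called higher in MSC, where 28.5% of all 14732 genes tested were, and 1 was called lower, where 27.7% were. Against LK cells, 8 were called higher (30.7% of all genes) and 1 lower (28.5% of all genes). Angpt1 was the member that was lower in MSC in both comparisons.

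Cxcl12, Pdgfra, Foxc1 and Ebf3 had hardly any counts in the sorted cells. Cxcl12 had 2760 counts over the MSC PBS libraries, 3 over the 3 LSK PBS libraries and 11 over the 3 LK PBS libraries. Scaled to library size, the ratio of MSC to LSK was 2795 (95% counting interval 956 to 13563) and that of MSC to LK 740 (413 to 1484), where the exact intervals cover counting error only. Ebf3 had 63 counts in MSC and 0 in both sorted populations, at least 63.8-fold higher than in LSK and at least 61.9-fold higher than in LK when 3 counts over the group are taken as the floor. Pdgfra had 565 counts in MSC, 1 in LSK, for a ratio of 1717 (307 to 67926), and 0 in LK, where it was at least 555-fold higher in MSC. Foxc1 had 219 counts in MSC and 1 in each sorted population, with ratios of 665 (118 to 26401) and 646 (115 to 25618). The fitted log2 difference of Cxcl12 from LSK was 11.59 and ran from 10.23 without MSC PBS replicate 2 to 12.30 without LSK PBS replicate 3. That from LK was 9.89 and ran from 8.50 without MSC PBS replicate 2 to 10.88 without LK PBS replicate 2. Foxc1 also moved with MSC PBS replicate 2, from 9.08 to 8.21 against LSK and from 9.09 to 8.18 against LK, where it was 8.50 without LK PBS replicate 2. Where the single count of Foxc1 or Pdgfra lay in the library left out (LSK PBS replicate 1 and LK PBS replicate 3), the fit had no count to compare with. Jag1 had 267 counts in MSC against 16 in LSK and 10 in LK cells, and its log2 differences were 5.56 (SE 0.58, edgeR adjusted p = 2.20e-05) and 6.30 (SE 0.60, adjusted p = 1.06e-05).

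Kitl was less clear-cut in LSK cells, where the 3 PBS libraries held 2, 46 and 0 counts, so that replicate 2, the library that stood apart, supplied nearly all of them. The log2 difference of MSC from LSK was 4.73 (SE 1.31, edgeR adjusted p = 0.0149) with that library and 8.70 (adjusted p = 3.22e-05) without it. It was not called by DESeq2 (4.76, adjusted p = 0.151) or without either MSC PBS library (adjusted p = 0.0606 and 0.0586). LK cells had 0 counts, so that Kitl was at least 453-fold higher in MSC. Il7 was higher in MSC than in LK cells by 4.69 on the log2 scale (SE 0.96, adjusted p = 0.00181), or by 5.67 without LK PBS replicate 3, and its difference from LSK of 1.51 (SE 0.83, adjusted p = 0.147) did not pass the test.

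**Figure D3:**
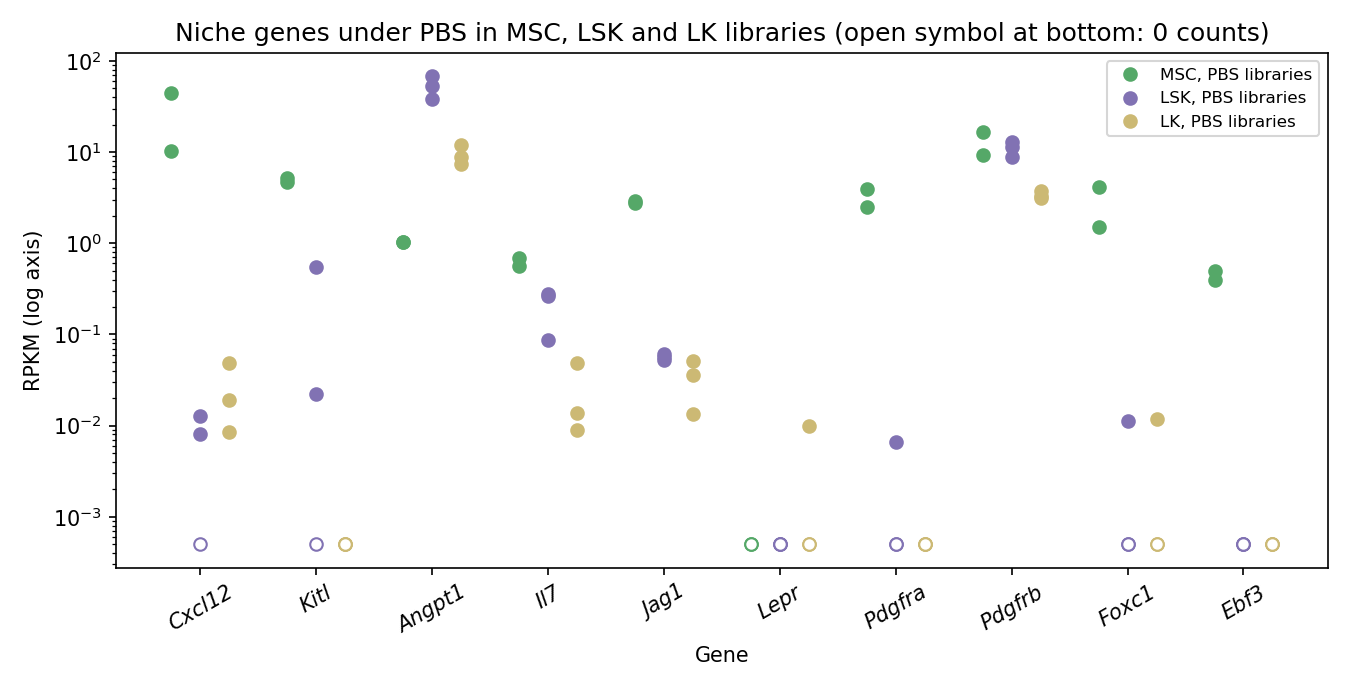
RPKM (log axis) of the 10 niche genes in each PBS library of MSC (green), LSK (purple) and LK (yellow), with open symbols at the bottom for libraries with 0 counts. Angpt1 is highest in LSK and lowest in MSC, and Pdgfrb of LSK overlaps that of MSC.

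Angpt1 and Pdgfrb were the members with ample counts in the sorted cells. Angpt1, which encodes the ligand of TIE2, was at 52.5, 37.8 and 67.6 RPKM in the LSK PBS libraries, at 7.34, 8.72 and 12.02 RPKM in LK and at 1.02 and 1.04 RPKM in MSC, without overlap. The log2 difference of MSC from LSK was -5.72 (SE 0.38, edgeR adjusted p = 1.17e-06) and that from LK -3.16 (SE 0.35, adjusted p = 2.87e-05). Its receptor gene Tek was likewise highest in LSK, at 5.50 ± 0.355 RPKM (SD, n = 3), against 1.03 ± 0.620 in LK (n = 3) and 0.0919 ± 0.0477 in MSC (n = 2). Pdgfrb was at 12.9, 8.73 and 11.3 RPKM in LSK, 3.14, 3.27 and 3.77 RPKM in LK and 16.6 and 9.36 RPKM in MSC. MSC differed from LK by 1.95 (SE 0.27, adjusted p = 1.50e-04), whereas the difference from LSK of 0.19 (SE 0.27, adjusted p = 0.580) did not pass the test. The mesenchymal list summed to 70.8 to 77.2 CPM in LSK and 66.9 to 92.2 CPM in LK PBS libraries, against 4334 and 7143 CPM in MSC, and 1 to 6 of the 22 markers were at 0 in the LSK PBS libraries. Col1a1 was at 0.366 to 0.470 CPM in LSK against 814 and 406 CPM in MSC.

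The receptors of the ligands were read in the same libraries. Per kilobase and with PBS, Kit was at 53.3 ± 9.16 RPKM in LSK and 33.9 ± 2.59 in LK (SD, n = 3 each), the sort having used its protein, and at 0.333 ± 0.0933 in MSC (n = 2). Cxcr4 was expressed in all populations, at 106 ± 8.32 RPKM in MSC, 61.1 ± 15.02 in LSK and 49.8 ± 9.11 in LK. Il7r was at 72.9 ± 1.80 RPKM in MSC and at 0.317 ± 0.226 and 0.119 ± 0.0311 in LSK and LK. The MSC values are those of cultures that held macrophage transcripts beside stromal ones. Notch1 (6.35 ± 1.24 RPKM) and Notch2 (15.4 ± 2.07) were highest in LSK, where Il1r1 was also highest, at 8.11 ± 1.24 RPKM against 1.20 ± 0.378 in MSC and 0.846 ± 0.222 in LK.

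Most of the niche genes were too low in the sorted cells for a test of IL-1β. In LSK cells 3 members could be tested (Angpt1, Il7 and Pdgfrb) and 0 were called by edgeR, where 0.632% of all 13132 genes were. At an unadjusted p below 0.05, where no share of all genes was taken, there were 2 members in edgeR, Angpt1 and Pdgfrb. DESeq2 called 1 member, where it called 384 of 21196 genes higher and 486 lower. Angpt1 was at 302, 218 and 399 CPM with PBS and at 152 and 94.7 CPM with IL-1β, so that both IL-1β libraries were below all PBS libraries. Its log2 fold change was -1.31 (SE 0.33, edgeR adjusted p = 0.103). Some other settings put Angpt1 past the threshold at similar size, with DESeq2 at -1.28 (adjusted p = 0.00573) and without PBS replicate 2, the library that stood apart, at -1.48 (adjusted p = 0.0459). It was not called with limma-voom, median-of-ratios or upper-quartile scaling, or without PBS replicate 1 or 3. With 1 library left out its log2 fold change ran from -1.70 to -0.99. Pdgfrb was at 78.3, 52.9 and 70.4 CPM with PBS and at 44.9 and 37.9 CPM with IL-1β, again without overlap (log2 fold change -0.70, SE 0.27, adjusted p = 0.228). A gap of this kind between the treatments was present for these 2 members and for 39.6% of all genes. Il7 had 24, 7 and 29 counts with PBS and 7 and 5 with IL-1β (log2 fold change -0.37, SE 1.09, adjusted p = 0.883). Stem and progenitor markers moved with Angpt1 in LSK, since their sum was 1896 to 2352 CPM with PBS and 1393 and 1601 CPM with IL-1β and 3 of 8 were called lower. Endothelial markers summed to 293 to 385 CPM with PBS and to 135 and 188 CPM with IL-1β, with Robo4 called lower. Of these, Erg (1390 to 2863 counts per LSK PBS library), Pecam1 (1127 to 2003) and Vwf (1043 to 1253) had the most counts. Cdh5 had at most 2 counts and Cldn5 had 0. Mesenchymal markers summed to 70.8 to 77.2 CPM and then to 46.4 and 63.2 CPM, with 2 of 8 called lower. The part of these markers in the values of Angpt1 and Pdgfrb was not tested.

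In LK cells 3 members were tested (Angpt1, Jag1 and Pdgfrb) and 0 were called, against 9.34% of all 12835 genes. At an unadjusted p below 0.05, where no share of all genes was taken, there was 1 member in edgeR, Jag1. DESeq2 called 1 member, where it called 1081 of 22186 genes higher and 459 lower. Jag1 had 1, 6 and 3 counts with PBS and 19 and 6 with IL-1β, or 0.0795, 0.309 and 0.215 CPM against 2.52 and 0.963 CPM. Both IL-1β libraries were higher than all PBS libraries, a gap seen for 45.7% of all genes. Its log2 fold change was 3.00 (SE 0.81, edgeR adjusted p = 0.0510), past the threshold with DESeq2 (adjusted p = 0.0302) and on very few counts in either case. Angpt1 was at 38.9, 46.4 and 64.8 CPM with PBS and at 49.3 and 29.5 CPM with IL-1β (log2 fold change -0.34, SE 0.28, adjusted p = 0.511). Pdgfrb was at 17.6, 18.3 and 21.4 CPM with PBS and at 27.2 and 13.2 CPM with IL-1β (log2 fold change 0.09, SE 0.29, adjusted p = 0.882). Both genes overlapped between treatments. Mesenchymal markers in LK summed to 66.9 to 92.2 CPM with PBS and to 37.7 and 57.9 CPM with IL-1β. Of 6 tested, Thy1 was called higher (3.24, adjusted p = 0.00658) and Col5a1 lower (-1.31, adjusted p = 0.0260), and their part in the value of Jag1 was not tested.

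**Figure D4:**
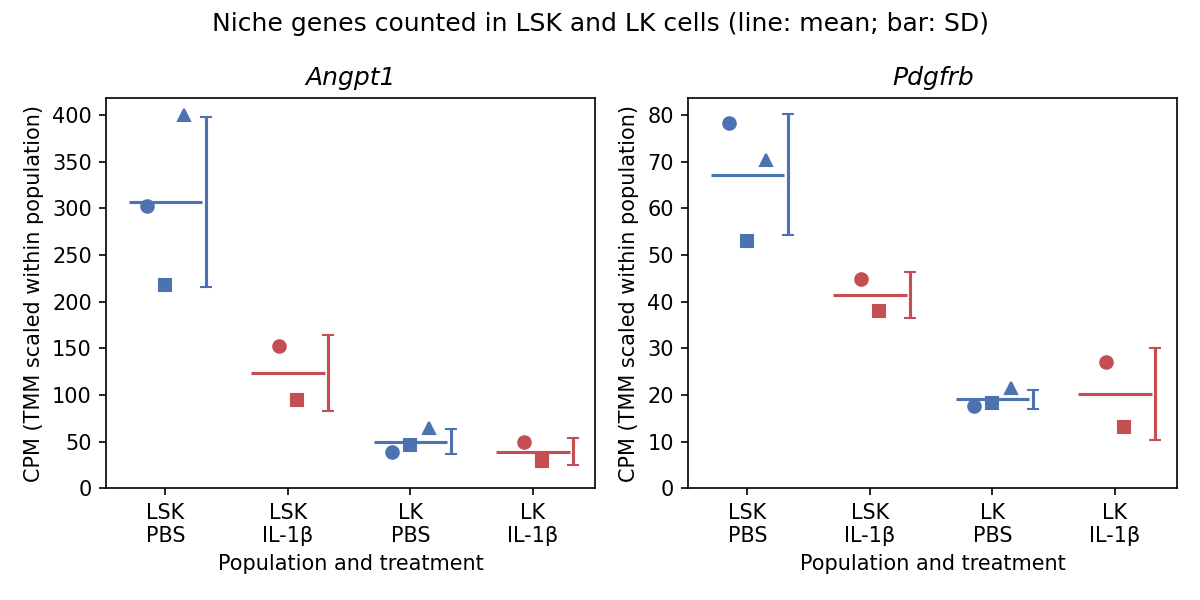
CPM of Angpt1 and Pdgfrb in each LSK and LK library with PBS (blue) or IL-1β (red), where lines give means, bars the SD and symbols the replicate number. In LSK the IL-1β libraries lie below all PBS libraries for both genes, and in LK the treatments overlap.

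The receptors of the niche ligands gave no call in the sorted cells. Of 20 receptors and partners, 14 were tested in LSK and 9 in LK. In both, 0 were called by edgeR, against 0.632% of all genes in LSK and 9.34% in LK. At an unadjusted p below 0.05 there were 5 in LSK and 2 in LK. Notch1 in LSK was the nearest, at 115, 107 and 79.9 CPM with PBS and 38.8 and 17.6 CPM with IL-1β (log2 fold change -1.82, SE 0.37, adjusted p = 0.0653), and it passed with DESeq2 (adjusted p = 2.58e-04), as did Il1r1 (adjusted p = 0.0329). Without PBS replicate 3 edgeR called Notch1 too, at -1.96 (adjusted p = 0.0157). The log2 fold changes of the others in LSK were -0.78 for Cxcr4, -0.60 for Kit, -0.75 for Tek, -0.97 for Il7r, -0.80 for Notch2 and -1.20 for Il1r1, with adjusted p from 0.131 to 0.705. In LK cells Notch2 was at -0.39 (SE 0.11, adjusted p = 0.0525), Cxcr4 at 0.49 (SE 0.20, adjusted p = 0.180), Kit at 0.09, Notch1 at 0.20, Tek at -1.32 and Il1r1 at 0.67. Without LK PBS replicate 3, edgeR called Cxcr4 (0.66, adjusted p = 0.0114) and Il1r1 (0.92, adjusted p = 0.0358).

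Of the other niche genes, 0 of 13 tested were called in LSK by edgeR (0.632% of all genes), with 4 at an unadjusted p below 0.05. In LK, where 6.77% of all genes were called higher, 3 of the 9 tested were. These were Csf1, the macrophage growth factor, Hgf, the hepatocyte growth factor, and Vcam1, an adhesion molecule, chosen here after their values were seen. Csf1 was at 7.71, 6.89 and 6.87 CPM with PBS and at 40.3 and 26.8 CPM with IL-1β in LK (log2 fold change 2.23, SE 0.22, adjusted p = 0.00138), whereas in MSC it fell by 0.87 on the log2 scale (SE 0.14, adjusted p = 0.0175). Hgf rose by 1.88 (SE 0.31, adjusted p = 0.0092) and Vcam1 by 2.49 (SE 0.56, adjusted p = 0.0402) in LK.

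**Figure D5:**
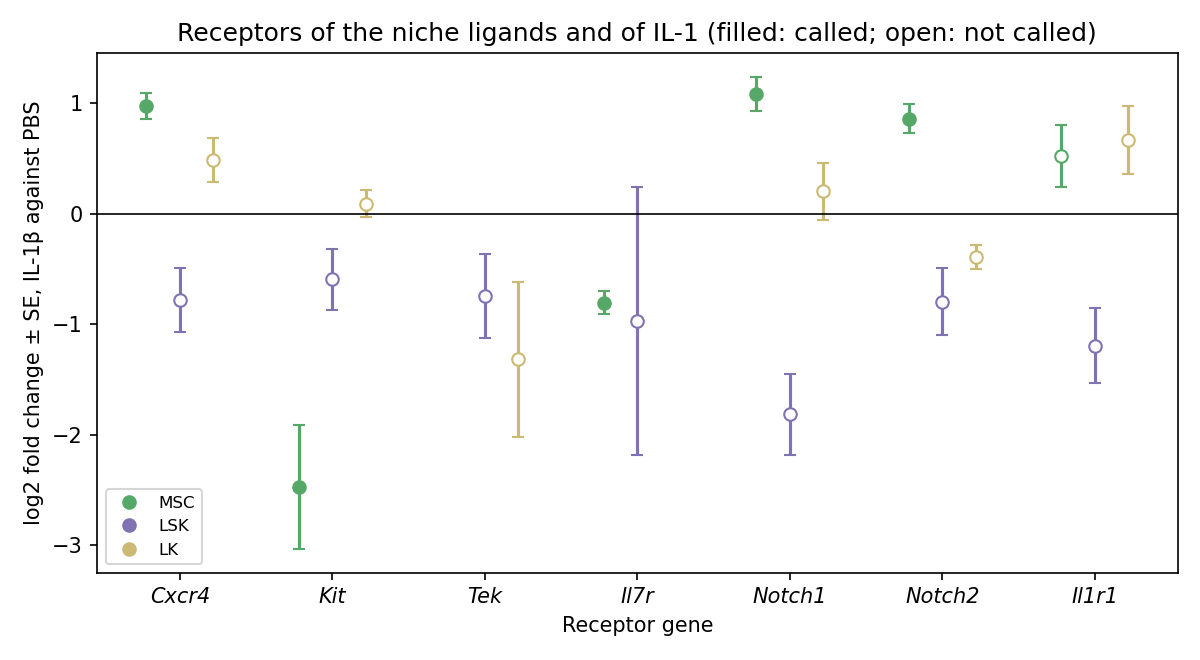
Log2 fold change (± SE) of IL-1β against PBS for 7 receptor genes in MSC (green), LSK (purple) and LK (yellow), filled where called. Cxcr4, Notch1 and Notch2 are filled and above 0 in MSC and open and below 0 in LSK. Tek in MSC and Il7r in LK were not tested.

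Whether the response of the members differed between populations was tested by the interaction term of a fit to the 14 libraries, and values are given for members with at least 10 counts in each group compared. Dose, route, time and genotype also differ between the culture and the injected mice and cannot be told apart from the population. No member was called by edgeR or DESeq2, against 9.27% of all 15393 genes for MSC minus LSK and 2.04% for MSC minus LK. For Angpt1 the response of MSC exceeded that of LSK by 1.25 on the log2 scale (SE 0.52, unadjusted p = 0.0297, adjusted p = 0.143) and that of LK by 0.37 (SE 0.52, adjusted p = 0.880). For Jag1 the difference from LK was -2.09 (SE 0.87, unadjusted p = 0.0319, adjusted p = 0.329) and that from LSK -0.16 (SE 0.82, adjusted p = 0.966). For Il7 the difference from LSK was 0.78 (SE 1.21, adjusted p = 0.749). For Pdgfrb the differences were 0.61 (SE 0.43, adjusted p = 0.401) and -0.09 (SE 0.43, adjusted p = 1.00).

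The genes whose log2 level was most like that of a member over the 14 libraries were named by Pearson correlation, as a description. They were Fbln5, Pappa and Fcrls for Cxcl12 (r of 0.997, 0.995 and 0.995), Pak3, Slit2 and AV356131 for Kitl (0.993, 0.992 and 0.988), and Ccl8, Ch25h and Rgl3 for Pdgfra (0.9998, 0.9995 and 0.9991). The points share 3 populations, and they split into MSC and sorted cells. For Slit2, LSK PBS replicate 2 had 52 counts where the other LSK libraries had at most 2, the same library in which Kitl was counted.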

How the data were processed

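RNA of the 14 libraries was depleted of ribosomal RNA and sequenced. The values are raw counts of read pairs per gene that the authors deposited for each population, made with fastp 0.20.0, HISAT2 2.0.1, SAMtools 1.10 and featureCounts 2.0.2, reverse-stranded, on Ensembl GRCm38 genes, per the file headers, the study's methods and the submitters' processing notes. Of 55487 gene identifiers, 55141 were matched to symbols. A further MSC library that a header names is not analysed here. Groups were taken from the sample labels.

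Counts were tested with edgeR 4.0.16 in R 4.3.3 (filterByExpr, TMM scaling, robust quasi-likelihood test) with Benjamini-Hochberg adjustment over all genes tested, and SE is the log2 fold change divided by the square root of F. Each population was fitted alone for IL-1β against PBS, the 3 PBS groups in one fit for levels, and all 14 libraries in one fit for differences of response. RPKM used TMM-scaled libraries and the exon length in the files. Counting intervals are exact at 95%, cover counting error only, and the floor for a count of 0 is 3 counts. The script was tested on simulated data: at a log2 change of 2 it recovered 86.8% of 197 changed genes for MSC (12986 genes), 67.9% of 193 for LSK (12692 genes) and 85% of 200 for LK (12385 genes). For PBS levels of MSC against LSK it recovered 63.3% of 196, and for the response of MSC minus LSK 52.6% of 192. False calls ran from 6 to 18 per comparison. Smaller changes were not simulated. DESeq2 1.42.0, limma 3.58.1, other scalings, no filter, a replicate block and leaving out each library were alternatives. No pair of libraries agreed within sampling noise.

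The members, gene lists and tests were chosen with earlier results of these data known. Genes named are the members, the receptors of the ligand members with Il1r1, the 8 called genes of the receptor and niche lists with the largest change in MSC, and for 3 members the genes of most similar level. Marker genes and genes of these lists named beside a count of calls were chosen after their values were seen.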

Additional observations from a re-analysis of the deposited data

Results flagged for a closer look

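Among the members and the genes named by rule with at least 10 counts in each group, no member was flagged and 9 results on receptors, partners and other niche genes were, each because the response to IL-1β differed between populations in a test of the difference itself (edgeR, all 14 libraries). Culture and injection, genotype, dose and time differ along with the population and cannot be told apart from it.

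For the response of MSC minus that of LSK, the log2 difference was 1.79 for Cxcr4 (SE 0.34, adjusted p = 0.00784), 2.93 for Notch1 (SE 0.48, adjusted p = 0.00358) and 1.69 for Notch2 (SE 0.33, adjusted p = 0.00860). These are receptors of CXCL12 and of JAG1. It was -1.75 for Kit (SE 0.45, adjusted p = 0.0298), 1.76 for Il1r1 (SE 0.49, adjusted p = 0.0403), 1.87 for Il2rg (SE 0.50, adjusted p = 0.0352) and 2.54 for Il15 (SE 0.50, adjusted p = 0.00867). For the response of MSC minus that of LK, it was -2.36 for Kit (SE 0.45, adjusted p = 0.0150) and 1.36 for Notch2 (SE 0.33, adjusted p = 0.0487). Kit had 3 to 26 counts in the MSC libraries. With limma-voom the differences from LSK of Kit (adjusted p = 0.184), Il1r1 (0.0579) and Il2rg (0.0662) and that of Kit from LK (0.202) were not called. Notch2 against LK was not called with median-of-ratios scaling (adjusted p = 0.0723), upper-quartile scaling (0.0735) or the replicate block (0.0642). With 1 library left out, each difference but that of Notch1 lost its call at least once: against LSK, Cxcr4 without MSC PBS replicate 3 (adjusted p = 0.0509), Il15 without MSC IL-1β replicate 2 (0.0524), and Notch2 without MSC PBS replicate 3 (0.0584) or MSC IL-1β replicate 1 (0.0528). Those of Il1r1 and Il2rg from LSK and of Notch2 from LK lost it with 10 of the 14 libraries left out in turn. That of Kit from LSK lost it without any 1 of the MSC libraries or LSK IL-1β replicate 1 (adjusted p from 0.0653 to 0.115), and that of Kit from LK without MSC PBS replicate 2, either MSC IL-1β library or LK IL-1β replicate 1 (0.0552 to 0.0818).

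The same fits called further genes of these lists, given here after their values were seen. Il6 and Gas6 fell short of 10 counts in a group. Il6 had 1 and 6 counts in the MSC PBS libraries. Gas6 had 3 and 1 in the LSK IL-1β libraries, against 38, 161 and 57 with PBS, the 161 in replicate 2, which stood apart. The log2 difference from LSK was -1.22 for Csf1 (edgeR adjusted p = 0.0183), -2.90 for Pdgfa (0.0260), 4.52 for Gas6 (0.0383) and 3.57 for Il6 (0.0453), and that from LK was -2.99 for Csf1 (1.64e-04) and 4.37 for Il6 (0.0386).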

How the results depend on the processing

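With 1 library left out, the genes called ranged from 38 to 3819 in MSC (1515 with all), 3 to 480 in LSK (83), 66 to 2409 in LK (1199), 6270 to 8938 for MSC against LSK levels (8269), 6933 to 9634 for MSC against LK levels (8725), 259 to 2977 for the response of MSC minus LSK (1427) and 87 to 646 for MSC minus LK (314). The members called ranged from 0 to 4 in MSC, 0 without either IL-1β replicate and 4 without PBS replicate 2, from 0 to 1 in LSK, where PBS replicate 2 gave 1, and from 6 to 7 for levels against LSK.

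Without a filter 2354 genes were called in MSC, 869 in LSK, 1844 in LK, 2200 for the response of MSC minus LSK, with 2 members, and 666 for MSC minus LK. With DESeq2 870 were called in LSK, 2315 for MSC minus LSK and 657 for MSC minus LK, and with limma-voom 21 in LSK. With all 14 libraries in one fit 424 were called in MSC with 0 members, 1984 in LSK and 679 in LK. Scaled to mesenchymal markers, 316 genes and 0 members were called in MSC. The member called in LSK under DESeq2, no filter, the replicate block and the joint fit was Angpt1, 1 in each, and in LK under the same settings Jag1, 1 in each. Of the calls in MSC 62.4% were higher, against 49.6% with upper-quartile scaling and 46.8% when scaled to mesenchymal markers, and in LK 72.5%, against 82.2% with limma-voom, 62.4% without a filter and 62.7% with the block.

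Same-numbered libraries of the treatments correlated at 0.12 and -0.03 in LSK and at -0.09 and 0.02 in LK, as deviations from group means. With 2 IL-1β libraries these deviations mirror each other, so the values cannot settle whether replicate numbers pair the treatments. With the replicate block 702 genes were called in LSK and 2331 in LK. Angpt1 in LSK was at -1.10 (edgeR adjusted p = 0.0398) and Jag1 in LK at 2.89 (adjusted p = 0.0326). The block also called Notch1 (adjusted p = 1.19e-05) and Il1r1 (0.0271) in LSK and Cxcr4 (0.63, adjusted p = 0.00245) and Il1r1 (0.90, adjusted p = 0.0479) in LK. Same-numbered LSK and LK PBS libraries correlated at 0.19, 0.12 and 0.45, but these populations were not compared with each other. MSC treatments share 1 number, so no block was run there.

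Direction turned for MSC Pdgfrb with limma-voom (0.0070) and, when scaled to mesenchymal markers, for Il7 (-0.12), Foxc1 (-0.12), Pdgfra (-0.19) and Il1r1 (-0.070). It turned with limma-voom for the response of MSC minus LSK of Jag1 (0.64) and of MSC minus LK of Pdgfrb (0.081). With 1 library left out the MSC log2 fold change ran from -0.12 to 2.01 for Cxcl12, -0.38 to 1.13 for Foxc1, -0.53 to 0.16 for Angpt1, -0.31 to 0.090 for Ebf3 and -0.49 to 0.37 for Pdgfrb. In LK it ran from -0.0019 to 0.41 for Notch1, -0.55 to 0.52 for Pdgfrb and -0.085 to 0.24 for Kit. Pdgfrb of MSC against LSK ran from -0.26 to 0.55. The response of MSC minus LSK ran from -0.85 to 6.00 for Jag1, and that of MSC minus LK from -0.11 to 0.80 for Angpt1 and -0.50 to 0.54 for Pdgfrb. The cause was not tested.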
